A study of Mus musculus with 15 samples.

Results

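The measurement described here is the difference between KO and WT fibroblasts in what an earlier exposure to interferon beta left behind 24 h after its removal. For each gene the after-effect was the log2 change from naive to pretreated cells, both taken without interferon in the medium (0 h), and the genotype difference was the after-effect in KO minus that in WT. It was taken from 8 of the 15 libraries of the study, 2 in each of 4 groups: WT naive 0 h, WT pretreated 0 h, NSD2 KO naive 0 h and NSD2 KO pretreated 0 h. A positive value means a higher ratio of pretreated to naive cells in KO than in WT, which can come from a larger rise in KO, a smaller fall in KO or a move in opposite directions.

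All cells were c57bl/6 mouse embryonic fibroblasts (MEFs) grown in DMEM with donor bovine serum, labelled WT and Nsd2(+/+), or NSD2 KO and Nsd2(-/-). NSD2 is a histone methyltransferase for lysine 36 of histone H3, and the count tables name its gene Whsc1, an older symbol. Pretreated cells had 3 h of mouse interferon beta at 100 units/ml, a wash and 24 h without it, while naive cells had none. The other 7 libraries were the same 4 kinds of cells after 2 h of interferon, with 1 library for NSD2 KO naive 2 h. The labels give no separate cultures, animals or cell clones, so the p-values rest on variation among libraries that could be technical repeats, and any difference between the WT and KO cells other than NSD2 cannot be told apart from the genotype. They also do not say whether naive cells were washed or kept in culture like the pretreated ones, so handling and interferon cannot be told apart.

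As background, interferon beta binds a receptor whose kinases activate STAT transcription factors. These join IRF9 and bind a DNA element, the interferon-stimulated response element (ISRE), in front of antiviral genes. When interferon is removed most of these transcripts decline at different speeds, and feedback proteins such as USP18 keep the receptor restrained for a time. Cells that have met interferon can therefore carry both leftover antiviral transcripts and other lasting changes.

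Gene counts summed to between 17170845 and 41600059 per library at 0 h, with between 14902 and 16160 genes detected. Values below are counts scaled by library size (CPM, with TMM factors), given as the 2 libraries of a group, and fitted log2 values ± SE from edgeR's quasi-likelihood test with Benjamini-Hochberg adjustment over all 13802 genes tested. A gene was called at an adjusted p below 0.05. Rn45s, a ribosomal RNA, and Lars2 summed to 10.6% of counts in WT naive replicate 1 and 19.0% in KO pretreated replicate 2, against 24.6% to 29.4% in the other 6. These 2 libraries enter the difference with the same sign, so counts of called genes are also given without them and without WT pretreated 2 h replicate 1, the other library below 20%. The fibroblast markers summed to 13800 to 16700 CPM in WT and 12100 to 13100 CPM in KO, but single markers differed widely. The fibroblast surface marker Thy1 was near absent in WT (0.0592 to 0.174 CPM) and stood at 28 to 30.1 CPM in KO. Pdgfra held 5.35 to 5.99 CPM in WT and 94 to 118 CPM in KO. Dcn differed the other way, with 16.9 to 20.2 CPM in WT and 1.15 to 4.47 CPM in KO. The macrophage and blood, endothelium, epithelium, skeletal muscle and adipocyte marker lists summed to at most 16.6 CPM in any of the 8 libraries, with Tyrobp, Emr1, Emcn and Epcam at 0 counts in all 8. The nerve and glia list summed to 17.4 to 20.8 CPM in WT and 62.3 to 67.4 CPM in KO, nearly all from the tubulin gene Tubb3.

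Whsc1 was counted in every library. Its levels were 112 and 108 CPM in WT naive, 146 and 133 CPM in WT pretreated, 95.7 and 99.7 CPM in KO naive and 109 and 110 CPM in KO pretreated cells. KO lay below WT without overlap within naive and within pretreated cells. Reads counted along the full gene cannot test a partial deletion, so WT and KO are used here as the names on the labels. The genotype difference of Whsc1 was -0.17 ± 0.07 (adjusted p = 0.19).

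The after-effect differed between the genotypes for 445 of 13802 genes, or 3.22%. It was higher in KO for 236 genes (1.71%) and lower for 209 (1.51%). Most differences were small, with a median size of 0.40 log2 units among the higher and 0.43 among the lower genes, and 37 reached 2-fold (21 higher and 16 lower). Each after-effect by itself covered far more genes. In WT 3307 genes (24.0%) were called, 1733 higher and 1574 lower, and in KO 2995 (21.7%), 1533 higher and 1462 lower. The WT count was 2076 without WT naive replicate 1, and the KO count was 1897 without KO naive replicate 2 and 1956 without KO pretreated replicate 2. Without KO naive replicate 1 the KO calls in the lower direction were 943. The WT and KO after-effects share no libraries. They had 937 genes higher in both, which was 54.1% of the WT and 61.1% of the KO higher calls, and 670 lower in both, which was 42.6% and 45.8% of the lower calls. Only 46 genes were called in opposite directions.

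The count of differences depended on single libraries. It was 281 without WT naive replicate 1, 262 without KO naive replicate 2, 274 without KO pretreated replicate 2 and 219 without the 3 libraries low in Rn45s and Lars2. In all 8 fits that left out 1 library at 0 h, 150 genes (1.09%) kept the call, 72 higher and 78 lower. The largest differences named below come from these 150 unless stated.

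**Figure D1:**
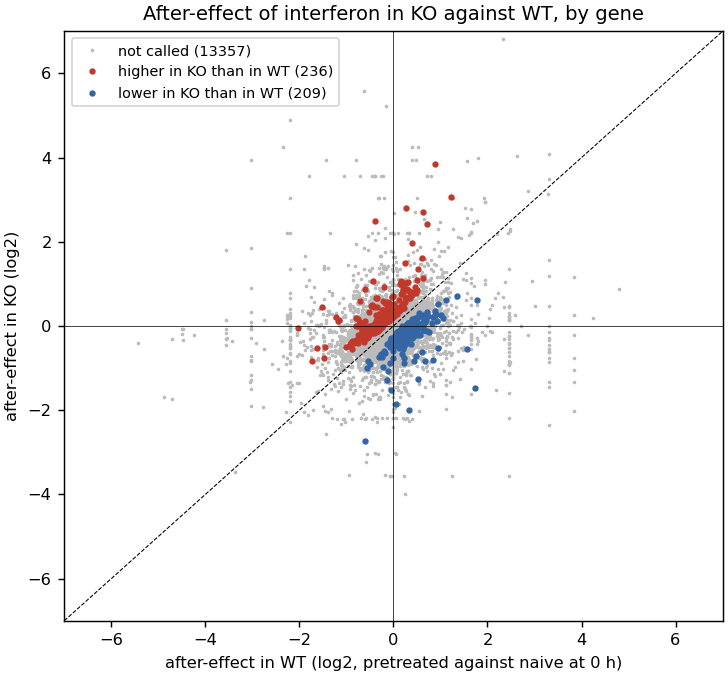
After-effect of interferon in KO (y axis) against WT (x axis), both as log2 of pretreated against naive cells at 0 h, 1 point per gene tested. Red points mark the 236 genes called higher and blue points the 209 called lower in KO than in WT, and the dashed line marks equal after-effects. The coloured points lie along both sides of the line, mostly within 1 log2 unit of it.

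Interferon-stimulated genes made up the largest differences in the higher direction. Ifi44, Gbp9, Iigp1, Gbp3, Ifih1 and Gbp2 were 6 of the 10 highest values by the naming rule, and all 6 rose after pretreatment in KO. In WT, Gbp3, Ifi44 and Ifih1 rose less, and Gbp2, Gbp9 and Iigp1 were not called. In bulk RNA more expressing cells and more RNA per cell cannot be told apart.

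Iigp1 encodes an immunity-related GTPase that attacks the vacuoles of intracellular parasites. It stood at 0.355 and 0.752 CPM in WT naive, 0.619 and 0.481 CPM in WT pretreated, 1.31 and 0.865 CPM in KO naive and 7.17 and 7.3 CPM in KO pretreated cells. The WT groups overlapped and the KO groups lay far apart. Its after-effect was 0.27 ± 0.43 in WT (adjusted p = 0.71) and 2.81 ± 0.18 in KO (adjusted p = 1.5e-12), a genotype difference of 2.54 ± 0.49 (adjusted p = 0.0019). Ifih1 encodes MDA5, a cytosolic sensor of long double-stranded RNA. Its levels were 0.789 and 1.04 CPM in WT naive, 1.35 and 1.48 CPM in WT pretreated, 1.7 and 1.61 CPM in KO naive and 8.11 and 9.73 CPM in KO pretreated cells. The pretreated group was higher in both genotypes without overlap, by 0.72 ± 0.25 in WT and 2.43 ± 0.14 in KO, and the difference was 1.71 ± 0.30 (adjusted p = 0.00078).

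The same pattern was seen in an abundant gene. Samd9l, an antiviral factor that restrains translation, held 80.1 and 88.7 CPM in WT naive, 99.8 and 109 CPM in WT pretreated, 52.1 and 48.1 CPM in KO naive and 101 and 104 CPM in KO pretreated cells. Pretreated KO cells thus stood at about the level of pretreated WT cells, from a lower naive level. The after-effects were 0.31 ± 0.05 and 1.04 ± 0.05, with a difference of 0.73 ± 0.08 (adjusted p = 3.0e-07).

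Several interferon genes that rose in both genotypes, such as Usp18, Bst2, Stat2, Irf9, Irf7 and Isg15, were not called in the difference. Usp18, which removes ISG15 from proteins and restrains the interferon receptor, held 0.296 and 0.405 CPM in WT naive, 3.06 and 3.36 CPM in WT pretreated, 2.18 and 1.45 CPM in KO naive and 13.8 and 16.4 CPM in KO pretreated cells. It rose 9.80-fold in WT and 8.72-fold in KO, and the genotype difference was -0.17 ± 0.36 (95% interval -0.91 to 0.57, adjusted p = 0.88). Bst2, or tetherin, which holds budding virus particles on the cell, went from 2.46 and 1.91 CPM to 10.2 and 11.1 CPM in WT and from 9.47 and 7.79 CPM to 35.9 and 41.4 CPM in KO. The difference was -0.01 ± 0.17 (95% interval -0.35 to 0.33, adjusted p = 0.99). Of the transcription factor subunits, Stat2 gave 0.06 ± 0.11 (95% interval -0.17 to 0.29) and Irf9 -0.35 ± 0.13 (95% interval -0.61 to -0.09, adjusted p = 0.15). Irf7 gave 0.54 ± 0.31 (95% interval -0.09 to 1.18) and Isg15 0.59 ± 0.44 (95% interval -0.31 to 1.49). Ifit1 rose in KO (1.80, adjusted p = 1.3e-08) and was not called in WT (0.50 ± 0.32, adjusted p = 0.28), and its difference of 1.30 ± 0.38 missed the threshold (adjusted p = 0.053). It held 1.16 and 2.26 CPM in WT naive, 2.11 and 2 CPM in WT pretreated, which overlapped, 3.6 and 2.64 CPM in KO naive and 9.93 and 11 CPM in KO pretreated cells.

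**Figure D2:**
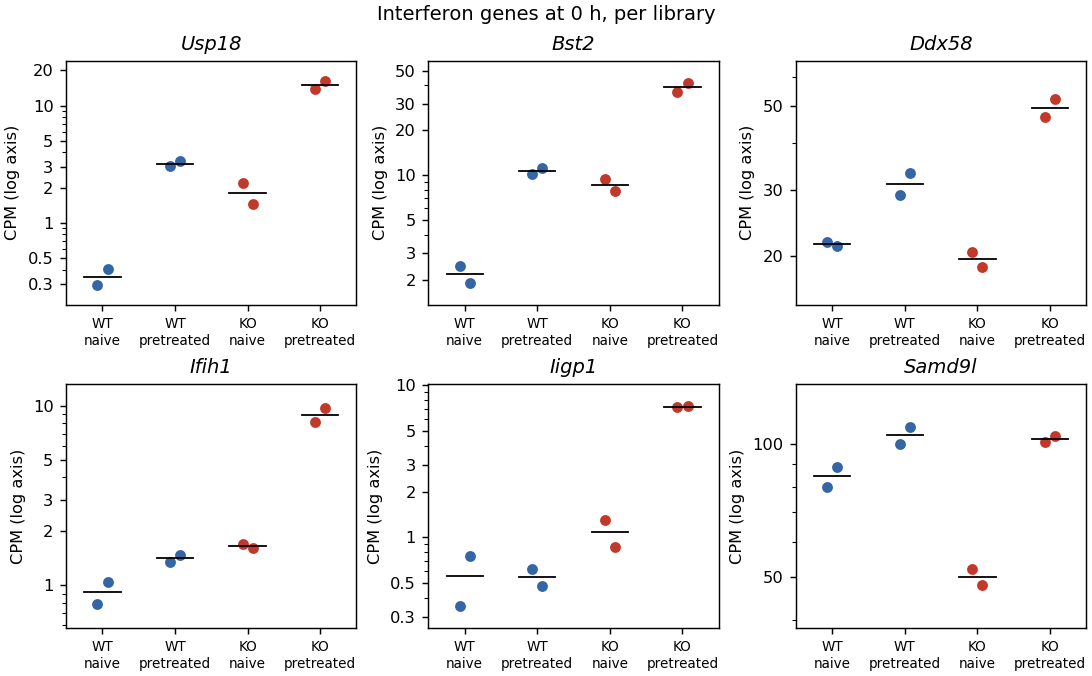
CPM on a log axis of 6 interferon-stimulated genes in the 4 groups at 0 h. Points are the 2 libraries of a group, bars their mean, blue WT and red KO. Usp18 and Bst2 rise by similar steps in both genotypes, while Iigp1, Ifih1, Ddx58 and Samd9l rise more in KO.

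Counted over whole lists, 11 of 64 antiviral effectors tested were higher in the difference and 0 lower (3 lower at an unadjusted p below 0.05 and 0 by DESeq2), with a median of 0.59, against a median near 0 (0.0014) over all genes tested. In WT 26 were higher and 1 lower after pretreatment (median 0.36), and in KO 48 were higher and 2 lower (median 0.87). Among all genes tested, 1.71% were higher and 1.51% lower in the difference. After pretreatment 12.6% were higher and 11.4% lower in WT, and 11.1% and 10.6% in KO. Of the 64, 5 had a group at 0 counts at 0 h and were not called, and the median without them was also 0.59. Without WT pretreated 0 h replicate 1 the difference held 7 calls. The named members were Ifi44 (2.97 ± 0.46), Rtp4 (2.08 ± 0.33), a chaperone-like protein, Samd9l, and Dtx3l (0.71 ± 0.11), a ubiquitin ligase that pairs with PARP9. Rtp4 lost its call without WT naive replicate 1 (adjusted p = 0.13). The other 7 are named here after their values were seen. Parp14 (1.01 ± 0.20), Parp12 (0.84 ± 0.22) and Parp10 (0.49 ± 0.11) encode enzymes that attach ADP-ribose to proteins. The rest were Parp9 (0.59 ± 0.12), Sp100 (1.25 ± 0.32), Tor3a (0.60 ± 0.10) and Eif2ak2 (0.32 ± 0.08), the kinase PKR. Of these 7, Parp14 and Tor3a kept their call in all 8 fits without 1 library at 0 h, and the others lost it in at least 1.

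Of the interferon-inducible GTPases, 6 of 16 tested were higher in the difference and 0 lower (median 1.54, 13 values above 0 and 2 below). In WT 5 were higher after pretreatment (median 0.13) and in KO 13 (median 1.98), with 0 lower in either. The shares called higher over all genes tested were 1.71% in the difference, 12.6% in WT and 11.1% in KO. All 15 libraries entered the filter on low counts, so GTPases with few counts at 0 h could pass through the 2 h libraries. Of the 16, 6 stayed under a mean of 1 CPM in all 4 groups at 0 h and 4 had a group at 0 counts, and none of these was called. The fitted values of those 4 depend on the prior count, and without them the median was also 1.54. Gbp2 held 4.48 and 4.86 CPM in WT naive, 2.91 and 3.92 CPM in WT pretreated, 2.26 and 1.89 CPM in KO naive and 4.76 and 3.77 CPM in KO pretreated cells, a rise in KO beside lower values in WT that were not called (-0.43 ± 0.16, adjusted p = 0.052). Its difference was 1.50 ± 0.23 (adjusted p = 0.00014). Gbp3 gave 1.83 ± 0.35 and Gbp9 2.89 ± 0.59, and Gbp7 (1.57 ± 0.40) and Irgm1 (0.36 ± 0.08) complete the 6, the last 2 named after their values were seen and each lost in at least 1 fit without 1 library. Most Gbp genes lie in clusters of related genes, and reads that match more than 1 of them may be lost or misplaced, which makes single members uncertain.

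Of MHC class I presentation genes, which display peptides to T cells, 5 of 21 were higher in the difference and 0 lower (median 0.29). The share over all genes tested was 1.71% higher and 1.51% lower. H2-D1, a class I heavy chain, went from 28.2 and 28.4 CPM to 31.3 and 33.9 CPM in WT and from 33.5 and 31.6 CPM to 57.3 and 59.2 CPM in KO, a difference of 0.64 ± 0.09 (adjusted p = 1.7e-05). B2m, the shared light chain, gave 0.36 ± 0.07. Nlrc5, Tap1 and Tap2 were also called, and each lost the call in some fit without 1 library (highest adjusted p = 0.23 for Tap1 and 0.22 for Nlrc5). Among nucleic acid sensors 3 of 24 were higher and 0 lower: Ifih1, Ddx58, which encodes RIG-I (0.82 ± 0.10), and Ifi204 (0.48 ± 0.11), the last lost without some libraries (highest adjusted p = 0.16).

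Interferon signalling genes moved in both directions, 2 higher and 2 lower of 24, against 1.71% and 1.51% of all genes tested. Ifi35, an interferon-induced protein, was among the higher at 0.74 ± 0.10. Stat3, which carries signals of the IL-6 family, and Socs3, its feedback inhibitor, were the lower pair. Stat3 fell after pretreatment in both genotypes, from 63.5 and 57.1 CPM to 47.6 and 51.2 CPM in WT and from 113 and 103 CPM to 61.3 and 67.9 CPM in KO. The fall was steeper in KO by -0.44 ± 0.08 (adjusted p = 0.0015). Socs3 rose in WT, from 8.81 and 8.16 CPM to 11.6 and 10.5 CPM, and fell in KO, from 34.6 and 34.4 CPM to 30.3 and 27 CPM, a difference of -0.63 ± 0.12 (adjusted p = 0.0022). Cebpd, a transcription factor also known as a target of STAT3, was among the 10 lowest values at -1.11 ± 0.14, with 20.9 and 23.7 CPM in KO naive and 13.1 and 11.3 CPM in KO pretreated cells.

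The upstream sequences of these genes were read for ISRE-like letters, to set genes with and without a genotype difference side by side. The letters searched were GAAANNGAAA on both strands in the 250 bases before the start in RefSeq's GRCm38.p6 (the counts were made on mm9). They were found in 9 of the 9 GTPases with an entry, 18 of 53 antiviral effectors (34%) and 338 of 10871 genes tested (3.11%). The GTPases held them whether called in the difference (4 of 4) or not (5 of 5). Among antiviral effectors with an entry they were in 0 of the 6 called (Ifi44, Samd9l, Dtx3l, Parp12, Sp100 and Eif2ak2) and in 18 of the 47 not called, Isg15, Ifit1 and Rsad2 among them. The other called effectors, Rtp4, Parp14, Parp9, Parp10 and Tor3a, had no entry and were not searched. Exact letters in 250 bases can miss an element, so whether the called genes lack an ISRE was not tested. The windows of Gbp2, Gbp3 and Samd9l, which were called, and Bst2, which was not, are shown as examples with and without the letters, 5′ to 3′ on the gene's strand with the matches in capitals. Gbp2 lies at chr3:142620413-142620662 (plus strand), Gbp3 at chr3:142559794-142560043 (plus strand), Samd9l at chr6:3399572-3399821 (minus strand) and Bst2 at chr8:71537473-71537722 (minus strand).
Gbp2: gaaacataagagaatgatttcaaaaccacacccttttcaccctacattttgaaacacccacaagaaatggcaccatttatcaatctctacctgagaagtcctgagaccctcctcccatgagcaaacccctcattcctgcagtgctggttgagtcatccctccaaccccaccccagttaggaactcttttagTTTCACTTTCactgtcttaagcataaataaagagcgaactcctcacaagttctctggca
Gbp3: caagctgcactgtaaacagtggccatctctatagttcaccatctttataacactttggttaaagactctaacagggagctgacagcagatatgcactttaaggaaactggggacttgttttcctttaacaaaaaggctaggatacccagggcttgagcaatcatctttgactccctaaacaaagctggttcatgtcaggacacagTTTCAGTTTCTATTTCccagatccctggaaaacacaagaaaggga
Samd9l: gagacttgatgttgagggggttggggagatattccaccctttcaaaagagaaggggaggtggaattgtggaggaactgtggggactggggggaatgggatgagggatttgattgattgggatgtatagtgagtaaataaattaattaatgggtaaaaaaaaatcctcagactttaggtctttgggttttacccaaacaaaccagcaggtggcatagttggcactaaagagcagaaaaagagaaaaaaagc
Bst2: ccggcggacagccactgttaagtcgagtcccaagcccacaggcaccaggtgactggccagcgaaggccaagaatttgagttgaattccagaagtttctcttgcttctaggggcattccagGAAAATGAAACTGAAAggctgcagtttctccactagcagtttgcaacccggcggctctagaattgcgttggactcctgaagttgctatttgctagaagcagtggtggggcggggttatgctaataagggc
The letters stand as TTTCNNTTTC in Gbp2 and Gbp3 and as GAAANNGAAA in Bst2, Samd9l has no match in this window, and Gbp3 and Bst2 each hold a pair of overlapping matches.

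Cholesterol synthesis genes moved together in the lower direction. Of 28 tested, 25 were lower in the genotype difference and 0 higher (also 0 at an unadjusted p below 0.05 and by DESeq2), with a median of -0.54 and all 28 values below 0. Their after-effect differed in kind: in WT 23 rose and 0 fell (median 0.43), while in KO 2 rose and 10 fell (median -0.09). All genes tested had 1.51% lower and 1.71% higher in the difference. Of them 12.6% rose and 11.4% fell in WT, and 11.1% rose and 10.6% fell in KO. The count of cholesterol genes lower in the difference was 22 to 25 whichever library at 0 h was left out. The pathway makes cholesterol from acetyl-CoA, and SREBP2 (Srebf2) switches it on when cell sterol is low.

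Idi1, an isomerase that makes the branched building blocks of sterols, had the lowest value of the list. It stood at 72.6 and 74.2 CPM in WT naive, 154 and 151 CPM in WT pretreated, 161 and 151 CPM in KO naive and 181 and 176 CPM in KO pretreated cells. Pretreated WT cells reached the level of naive KO cells. The after-effects were 1.06 ± 0.05 in WT and 0.20 ± 0.04 in KO, and the difference was -0.86 ± 0.06 (adjusted p = 1.0e-09). Insig1, a sensor that holds SREBP back in the endoplasmic reticulum when sterol is plentiful and is itself an SREBP target, went from 78.3 and 80 CPM to 123 and 126 CPM in WT. In KO it held 212 and 203 CPM before and 192 and 199 CPM after, a change that was not called, and the difference was -0.74 ± 0.07 (adjusted p = 2.3e-08).

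Fdps, which makes farnesyl diphosphate, moved in opposite directions. It rose from 145 and 150 CPM to 193 and 200 CPM in WT and fell from 379 and 369 CPM to 322 and 341 CPM in KO, with a difference of -0.59 ± 0.06 (adjusted p = 3.5e-07). Nsdhl, a sterol dehydrogenase, went from 26.9 and 28 CPM to 42.9 and 41.8 CPM in WT and held 73.2 and 71.8 CPM before and 67.8 and 67.5 CPM after in KO, a difference of -0.73 ± 0.08. In these 4 genes naive KO cells stood at or above the level of pretreated WT cells. Averaged as log2 CPM (prior count 2) over the 28 genes, the 2 libraries gave 5.73 and 5.72 in WT naive, 6.18 and 6.17 in WT pretreated, 6.87 and 6.84 in KO naive and 6.78 and 6.78 in KO pretreated cells.

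The other called members, named after their values were seen, ran from Acat2 (-0.80 ± 0.09) and Mvd (-0.80 ± 0.11) to Scd2 (-0.24 ± 0.06), which lost its call in some fits without 1 library. They included the squalene epoxidase Sqle (-0.63 ± 0.07), the fatty acid synthase Fasn (-0.56 ± 0.07) and Srebf2 itself (-0.47 ± 0.08). Of the 3 members not called, Ebp gave -0.24 ± 0.08 and Srebf1 -0.13 ± 0.09.

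**Figure D3:**
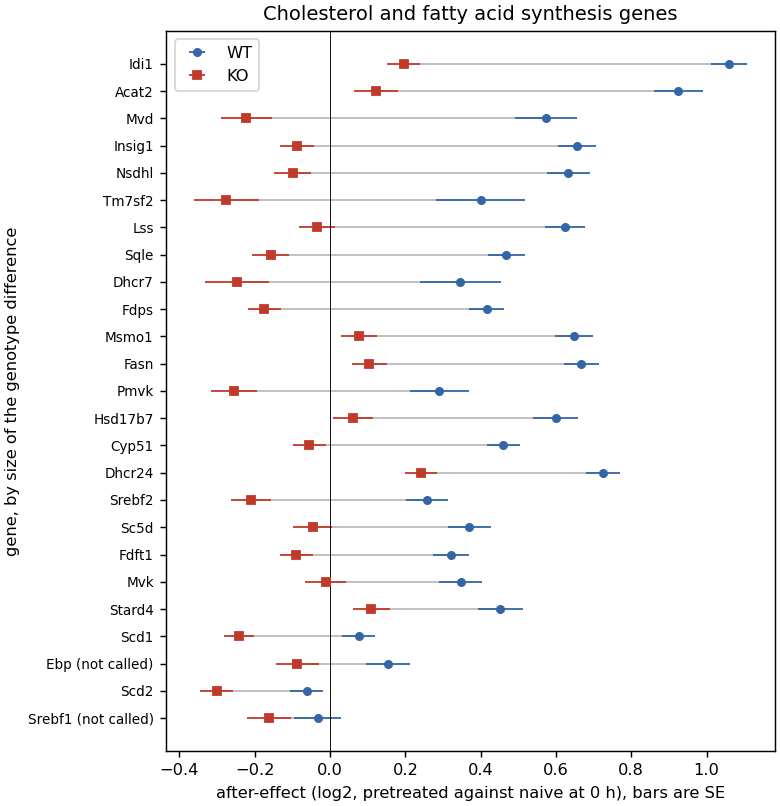
After-effect (log2 of pretreated against naive cells at 0 h, bars are SE) of 25 of the 28 cholesterol and fatty acid synthesis genes tested, 23 of them called, in WT (blue circles) and KO (red squares), ordered by the genotype difference. The WT value lies to the right of the KO value in all 25, and Ebp and Srebf1 are marked as not called.

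Promoters of this pathway are known to carry CCAAT boxes, bound by NF-Y, beside sterol elements. The letters CCAAT on either strand were in the 250 bases upstream of 17 of the 18 members with an entry (94.4%), against 40.8% of the 10871 genes tested with one. Members held them whether called in the difference (15 of 16) or not (2 of 2). The sterol-element-like letters TCACNCCAC were in 0 of the 18 and in 1.24% of all genes. The windows of Idi1, at chr13:8885356-8885605 (plus strand), and Acat2, at chr17:12960726-12960975 (minus strand), are shown as the 2 lowest values of the list, and Nsdhl, at chrX:72918271-72918520 (plus strand), as a further member, with CCAAT or its complement ATTGG in capitals.
Idi1: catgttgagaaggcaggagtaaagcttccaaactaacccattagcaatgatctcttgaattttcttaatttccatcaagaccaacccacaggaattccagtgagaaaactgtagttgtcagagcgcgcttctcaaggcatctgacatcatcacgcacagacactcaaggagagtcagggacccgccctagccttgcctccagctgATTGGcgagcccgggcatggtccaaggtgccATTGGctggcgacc
Acat2: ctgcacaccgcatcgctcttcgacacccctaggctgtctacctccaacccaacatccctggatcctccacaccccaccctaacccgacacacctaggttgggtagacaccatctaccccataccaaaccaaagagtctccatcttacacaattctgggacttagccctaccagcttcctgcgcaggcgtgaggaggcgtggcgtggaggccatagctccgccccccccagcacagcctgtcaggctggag
Nsdhl: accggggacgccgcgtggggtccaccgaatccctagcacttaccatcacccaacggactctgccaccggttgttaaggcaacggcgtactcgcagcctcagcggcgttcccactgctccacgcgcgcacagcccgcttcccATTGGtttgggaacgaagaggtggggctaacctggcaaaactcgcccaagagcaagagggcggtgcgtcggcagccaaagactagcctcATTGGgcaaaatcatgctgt
Idi1 and Nsdhl each hold 2 matches, all written as ATTGG on the gene's strand, and Acat2 is the 1 member with an entry and no match.

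Matrix genes also differed, and in each genotype more of them fell than rose. Of 44 extracellular matrix genes, 22 fell and 4 rose in WT after pretreatment, and 24 fell and 6 rose in KO. Of all genes tested, 11.4% fell and 12.6% rose in WT, and 10.6% fell and 11.1% rose in KO. These counts do not say whether the same members fell in both genotypes. In the difference 8 of the 44 were higher and 3 lower (median 0.13), against 1.71% and 1.51% of all genes tested. Postn, or periostin, a secreted matrix protein of active fibroblasts, dropped from 272 and 284 CPM to 87.4 and 93.7 CPM in WT and from 461 and 440 CPM to 287 and 337 CPM in KO. Both falls were without overlap, and the fall was shallower in KO by 1.09 ± 0.15 (adjusted p = 3.2e-05). Lox, which crosslinks collagen, dropped from 900 and 907 CPM to 581 and 621 CPM in WT, and in KO it went from 432 and 424 CPM to 402 and 383 CPM, a difference of 0.47 ± 0.07. Col3a1, a fibrillar collagen chain, gave 0.51 ± 0.10 as a ratio, but it lost 125 CPM on average in WT and 185 CPM in KO, so that on the CPM scale the difference has the opposite sign.

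Timp3, an inhibitor of matrix proteases, showed a difference through a rise in KO. It held 1030 and 1070 CPM in WT naive and 1030 and 1080 CPM in WT pretreated cells, which overlapped, and rose in KO from 135 and 127 CPM to 189 and 188 CPM. The difference was 0.52 ± 0.06 (adjusted p = 3.7e-06). Dcn, or decorin, a small proteoglycan on collagen fibrils, went the other way. It held 16.9 and 20.2 CPM in WT naive, 18.1 and 19.4 CPM in WT pretreated, 3.96 and 4.47 CPM in KO naive and 1.19 and 1.15 CPM in KO pretreated cells, a difference of -1.91 ± 0.24 (adjusted p = 6.2e-06). Col1a2 (0.29 ± 0.07) lost its call in 4 of the 8 fits without 1 library.

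Contractile genes and targets of SRF, the factor that ties gene activity to the actin skeleton, had 11 of 24 members higher in the difference and 1 lower (median 0.23). In WT 9 rose and 3 fell, and in KO 18 rose and 1 fell. Of all genes tested, 1.71% were higher and 1.51% lower in the difference. After pretreatment 12.6% rose and 11.4% fell in WT, and 11.1% rose and 10.6% fell in KO. The count of 11 was 6 without WT naive replicate 1, and 7 without KO naive replicate 1 or KO pretreated replicate 1. It was 6 without the 3 libraries low in Rn45s and Lars2. Acta2, smooth muscle actin, fell in WT from 1780 and 1820 CPM to 1490 and 1610 CPM and rose in KO from 759 and 742 CPM to 889 and 905 CPM, a difference of 0.47 ± 0.07 (adjusted p = 0.00014). Tagln, an actin-binding protein, held 140 and 132 CPM in WT naive and 122 and 133 CPM in WT pretreated cells and rose in KO from 104 and 101 CPM to 152 and 148 CPM, a difference of 0.65 ± 0.07. Ankrd1, a YAP target, rose in WT from 101 and 101 CPM to 116 and 108 CPM and in KO from 5.62 and 5.57 CPM to 9.61 and 9.23 CPM. Its difference was 0.60 ± 0.11 as a ratio, but the rise in CPM was the larger in WT. Ctgf, a matricellular growth factor, rose in WT and fell in KO, a difference of -0.61 ± 0.07.

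Among the 445 called genes, 20 had a difference of opposite sign on the CPM scale, 10 in each direction. Ankrd1 and Col3a1, whose naive levels differed widely between the genotypes, are among them, as are Dusp4, Ptgs2 and Id2. Ptgs2 rose by 45.7 CPM in WT and 39 CPM in KO, and Id2 by 8.68 CPM in WT and 12.7 CPM in KO.

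The 46 genes called in opposite directions in WT and KO split into 26 that rose in WT and fell in KO and 20 that did the reverse. Ccl9, a chemokine that draws myeloid cells, rose in WT from 9.13 and 10 CPM to 13.2 and 13.8 CPM and fell in KO from 21.9 and 20.3 CPM to 8.11 and 9.39 CPM. The order of the genotypes was thereby turned: KO was above WT in naive cells and below it after pretreatment. The difference was -1.79 ± 0.14 (adjusted p = 4.0e-09). Il33, a nuclear alarm cytokine of stromal cells, rose in WT from 1.22 and 1.5 CPM to 3.86 and 3.81 CPM and fell in KO from 4.48 and 5.28 CPM to 3.29 and 3.49 CPM, a difference of -2.10 ± 0.25 (adjusted p = 2.3e-06).

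In Mgp, Neurl1b and Sprr1a the genotypes drew closer without crossing. Mgp, an inhibitor of mineral deposition in matrix, rose in WT from 101 and 107 CPM to 147 and 141 CPM and fell in KO from 345 and 351 CPM to 196 and 230 CPM, a difference of -1.18 ± 0.10. Neurl1b, a ubiquitin ligase of the Notch pathway, gave -1.22 ± 0.19, and Sprr1a, a small proline-rich protein, -1.67 ± 0.30. Npnt, a matrix ligand of integrin alpha 8, went the other way, falling in WT from 4.54 and 4.28 CPM to 2.91 and 2.92 CPM and rising in KO from 6.22 and 6.78 CPM to 13 and 11.1 CPM, a difference of 1.50 ± 0.20 (adjusted p = 2.0e-05). Itga8, which encodes that integrin chain, was among the 10 lowest values at -0.95 ± 0.16. Asgr1, an asialoglycoprotein receptor chain, gave 1.32 ± 0.30 at 1.43 to 3.18 CPM, and lost its call in 2 fits without 1 library.

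**Figure D4:**
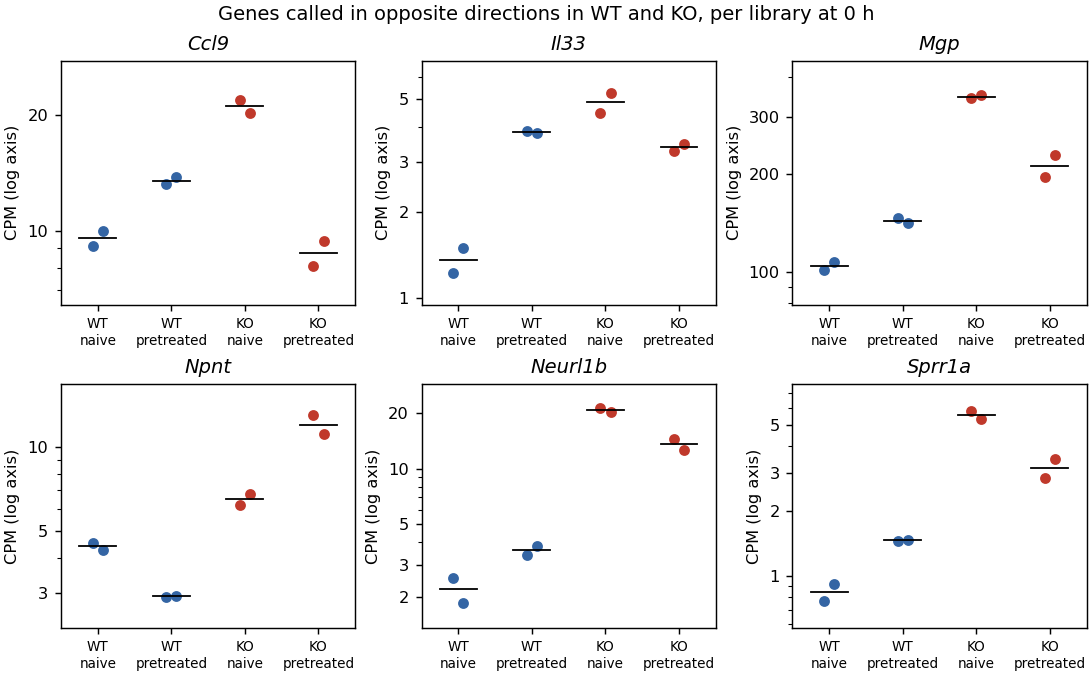
CPM on a log axis of 6 genes called in opposite directions in WT and KO, in the 4 groups at 0 h. Points are the 2 libraries of a group, bars their mean, blue WT and red KO. The pretreated libraries lie above the naive ones in WT and below them in KO for Ccl9, Il33, Mgp, Neurl1b and Sprr1a, and the reverse for Npnt.

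The remaining extremes rested on a change in 1 genotype. Cemip, which degrades hyaluronan, fell in WT from 39.2 and 41.7 CPM to 17.5 and 18.8 CPM and was not called in KO, at 19.3 and 21.3 CPM before and 22.8 and 22.4 CPM after, a difference of 1.29 ± 0.12 (adjusted p = 3.9e-08). Synpo2, an actin-bundling protein, fell in WT from 6.09 and 6.02 CPM to 2.77 and 2.62 CPM and held 4.72 to 5.3 CPM in KO, a difference of 1.28 ± 0.20. Cp, or ceruloplasmin, a copper-carrying ferroxidase, held 17 to 19.5 CPM in WT and fell in KO from 64.2 and 59.1 CPM to 23.3 and 27.7 CPM, a difference of -1.13 ± 0.11 (adjusted p = 8.3e-08).

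The counts of the other lists in the difference stand beside 1.71% called higher and 1.51% called lower over all genes tested. Their after-effect counts stand beside 12.6% higher and 11.4% lower in WT, and 11.1% and 10.6% in KO. DNA replication and G1/S genes rose after pretreatment in both genotypes, 33 of 34 in WT and 30 in KO, and the difference had 0 higher and 3 lower, of which E2f2, a replication-driving transcription factor, gave -0.75 ± 0.16. Mitosis genes rose for 30 of 32 in WT and 23 in KO, with 0 higher and 1 lower in the difference (Cenpa, -0.34 ± 0.08, lost in 2 of the 8 fits without 1 library). The difference was below 0 for 30 of the 34 replication genes and 30 of the 32 mitosis genes (median -0.12 in each list). At an unadjusted p below 0.05, 11 and 13 of them were lower and 0 higher. At 2 h, 5 replication and 19 mitosis genes were called lower and 0 higher, against 3.94% and 5.10% of all genes tested. ER stress and ATF4 targets fell for 25 of 32 in WT and 23 in KO, with 3 higher and 0 lower in the difference. Of these, Atf3 (0.81 ± 0.18) kept its call in 6 of the 8 fits without 1 library. Ddit3 (0.34 ± 0.09) kept it in 2 and Nupr1 (0.36 ± 0.10) in 0. Immediate early genes had 1 higher and 3 lower of 29, led by Nr4a1 (-0.63 ± 0.13) and Dusp4 (-0.62 ± 0.11), a MAP kinase phosphatase that lost its call without WT naive replicate 1 (adjusted p = 0.081). Dusp4 rose in both genotypes and by more CPM in KO, so its difference has the opposite sign on that scale.

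TGF-beta targets had 1 higher and 3 lower of 20, of which Id1 (-0.53 ± 0.09) kept its call in all 8 fits. Chemokines and NF-kB targets had 1 higher and 1 lower of 23, Ptgs2 (0.31 ± 0.07, adjusted p = 0.08 without KO naive replicate 2) and Ccl9. On the CPM scale the difference of Ptgs2 has the opposite sign. Hypoxia and glycolysis genes had 3 higher and 0 lower of 27. Ndrg1 kept its call in 6, Bnip3 in 4 and P4ha1 in 1 of the 8 fits without 1 library. NRF2 targets had 1 higher, Gstm1 (0.42 ± 0.10), and 1 lower, Tkt (-0.34 ± 0.06), of 17. By edgeR, 0 of 24 p53 targets and senescence genes and 0 of 26 genes of H3K36 methylation and H3.3 deposition were called, with 7 and 2 of them at an unadjusted p below 0.05 and 0 and 0 called by DESeq2. With 3.22% of all genes tested called, lists of this size can hold 0 calls, so these counts set neither list apart.

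Among markers of other cell types, the cartilage and bone list summed to 37.2 to 44.1 CPM in WT and to 211 and 224 CPM in KO naive and 331 and 295 CPM in KO pretreated cells. The cartilage collagen Col2a1 made up most of this in KO. It held 165 and 176 CPM in KO naive, 284 and 254 CPM in KO pretreated and 1.07 to 1.62 CPM in WT cells, a difference of 1.01 ± 0.23 (adjusted p = 0.010) that was lost without WT naive replicate 1 (adjusted p = 0.24) and without WT pretreated replicate 2 (adjusted p = 0.096). Sox9 and Runx2 of the same list were not called. The part of a change in cell makeup in the matrix and contractile differences was not tested.

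The same contrast could be taken at 2 h, in 7 libraries that the 0 h values do not use, where the lone KO naive 2 h library was given the spread of the other groups. There 1248 genes (9.04%) were called, 704 higher (5.10%) and 544 lower (3.94%). The count was 778 (435 higher and 343 lower) without WT naive 2 h replicate 1 and 814 (427 higher and 387 lower) without KO pretreated 2 h replicate 1. Of the 236 genes higher at 0 h, 92 (39%) were called higher at 2 h and 30 (12.7%) lower. Of the 209 genes lower at 0 h, 77 (36.8%) were called lower and 9 (4.31%) higher. These 92 and 77 genes were 13.1% and 14.2% of the 2 h calls in their direction.

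The cholesterol, matrix and contractile lists leaned the same way at 2 h as at 0 h. The cholesterol list had 1 higher and 18 lower of 28 (median -0.41). Idi1 held 89.3 and 92.3 CPM in WT naive, 169 and 157 CPM in WT pretreated, 209 CPM in KO naive and 186 and 184 CPM in KO pretreated cells at 2 h, a difference of -1.02 ± 0.07 (adjusted p = 1.4e-11). The matrix list had 21 higher and 2 lower of 44, with Postn at 0.83 ± 0.17. Of the 10 lowest values at 0 h by the naming rule, 9 were called lower again at 2 h and 1, Cebpd (-0.27 ± 0.14, adjusted p = 0.27), was not called. Ccl9 (-1.72 ± 0.15) and Cp (-1.22 ± 0.12) stayed close to their 0 h values, and Il33 (-0.91 ± 0.26) was nearer to 0. Of the 10 highest, 3 were called higher at 2 h (Cemip, Synpo2 and Postn), 5 were called lower (Ifi44, Iigp1, Gbp3, Ifih1 and Gbp2), and Npnt (0.64 ± 0.25, adjusted p = 0.11) and Gbp9 (-0.69 ± 0.33, adjusted p = 0.22) were not called. The contractile list had 11 higher and 1 lower of 24 at 2 h (median 0.26), against 11 and 1 at 0 h (median 0.23). Tagln was called higher at both times (0.39 ± 0.08 at 2 h). Its fellow members Ctgf (0.68 ± 0.07, adjusted p = 4.2e-08) and Ankrd1 (-0.39 ± 0.10, adjusted p = 0.012) were called at 2 h in the direction opposite to that at 0 h.

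Interferon genes had the opposite sign at 2 h when taken as ratios. Of 64 antiviral effectors, 0 were higher and 48 lower at 2 h (median -1.19), and of 16 GTPases 0 and 11 (median -1.52). Iigp1 held 5.27 and 4.86 CPM in WT naive, 24.7 and 31.6 CPM in WT pretreated, 382 CPM in KO naive and 600 and 614 CPM in KO pretreated cells at 2 h. All KO libraries lay far above all WT libraries, and the ratio of pretreated to naive cells was the larger in WT, a difference of -1.78 ± 0.13 (adjusted p = 5.9e-11) against 2.54 at 0 h. In CPM the gain was the larger in KO, 226 CPM against 23.1 CPM in WT, so the sign at 2 h turns with the scale. On the CPM scale the difference was above 0 for 32 of the 48 antiviral effectors and 9 of the 11 GTPases called lower at 2 h. Samd9l gave -0.85 ± 0.07 at 2 h against 0.73 at 0 h, and its gain at 2 h was also the smaller in KO in CPM (83.2 CPM against 248 CPM in WT). Each 2 h value rests on the single KO naive library.

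**Figure D5:**
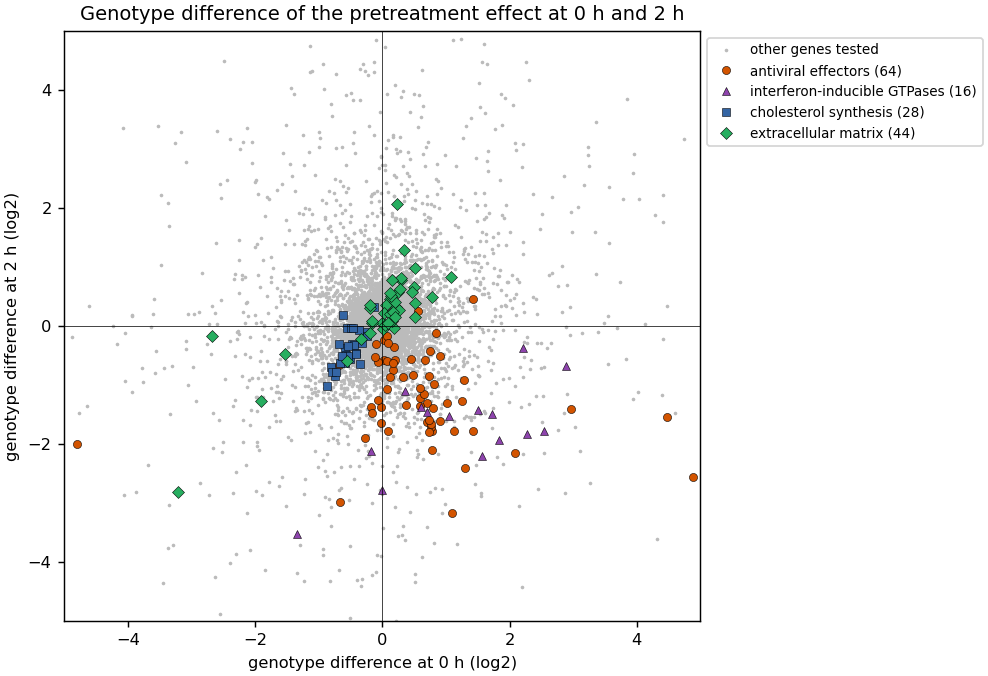
Genotype difference of the pretreated against naive log2 change at 2 h (y axis) against 0 h (x axis), 1 point per gene tested, with 4 gene lists marked; 38 genes lie outside the axes of ±5. Antiviral effectors and GTPases lie mostly to the lower right, cholesterol genes to the lower left and most matrix genes to the upper right.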

How the data were processed

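Per the labels' protocols, TRIzol-extracted RNA went into NuGEN Ovation SP Ultralow libraries, read as paired ends on a HiSeq2000. The authors deposited 1 table of raw read counts for each library, with 24015 gene symbols, and the submitters' processing notes name mm9 as the build and STAR 2.5.2b, HTSeq and bcl2fastq 2.15 as tools. Neither annotation nor strand setting is given in the sources used here, which leaves near-identical, overlapping and antisense genes uncertain. The 5 HTSeq summary lines were left out. Reads in no gene were 37.1% to 41.3% of uniquely aligned reads. Replicates differed by more than sampling noise in every group at 0 h (3.61 to 168 chi-square units per degree of freedom). Rn45s and Lars2 enter this measure. It was 168 in WT naive and 72.2 in KO pretreated cells, the groups with a library low in them, and 5.94 in WT pretreated and 3.61 in KO naive cells.

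Counts were scaled by TMM (factors 0.974 to 1.22 at 0 h) and tested with the quasi-likelihood test of edgeR 4.0.16 under R 4.3.3, on 13802 genes that passed filterByExpr with a minimum count of 10, with all 15 libraries fitted as 8 groups, which left 7 residual degrees of freedom. CPM were computed from the same scaled library sizes. There were 4 comparisons: the after-effect in WT and in KO, their difference at 0 h, and the same difference at 2 h. The difference at 0 h shares libraries with each after-effect, and the after-effects share none with each other. The alternatives tried were DESeq2 1.42.0, RLE size factors, no filter, the compared groups alone, a replicate block, leaving out Rn45s and Lars2, leaving out the 3 libraries low in them, and leaving out each library. The steps were tested on simulated counts.

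Genes were named by a rule: Whsc1, the 10 highest and 10 lowest differences among genes called in every fit without 1 library at 0 h and reaching a mean of 1 CPM in a group, the 6 strongest genes called in opposite directions, the members with the smallest p in each list, up to 4, and 15 interferon genes. Some genes that it takes, and 3 of the 28 cholesterol genes tested, are not reported here one by one and are left out of the plot, but stay in the counts. The comparison, the gene lists and this rule were chosen with earlier results of these data known. Upstream windows were 250 bases from RefSeq (GRCm38.p6), matched by symbol or unique synonym for 10871 of the 13802 genes. The CCAAT search was added after the sterol-element search had been read. Figures were drawn with matplotlib 3.10.9.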

Additional observations from a re-analysis of the deposited data

Results flagged for a closer look

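The test of the difference between the genotypes called 445 genes at 0 h, and each named gene among them is given here with its log2 genotype difference (KO after-effect minus WT after-effect, edgeR adjusted p below 0.05). Of the 69 named genes, 41 were higher in KO. The interferon genes among them were Ifi44 (2.97), Gbp9 (2.89), Iigp1 (2.54), Rtp4 (2.08), Gbp3 (1.83), Ifih1 (1.71), Gbp2 (1.50), Nlrc5 (1.14), Ddx58 (0.82), Ifi35 (0.74), Samd9l (0.73), Dtx3l (0.71), H2-D1 (0.64), Ifi204 (0.48), Tap1 (0.40) and B2m (0.36). Matrix, fibroblast and contractile genes were Npnt (1.50), Cemip (1.29), Synpo2 (1.28), Postn (1.09), Tagln (0.65), Ankrd1 (0.60), Timp3 (0.52), Col3a1 (0.51), Acta2 (0.47), Lox (0.47), Col1a2 (0.29) and Pdgfrb (0.24). Stress, signalling and hypoxia genes were Atf3 (0.81), Dusp5 (0.51), Gstm1 (0.42), Ndrg1 (0.38), Nupr1 (0.36), Bnip3 (0.35), Ddit3 (0.34), Ptgs2 (0.31) and P4ha1 (0.22). The rest were Acta1 (1.95), Asgr1 (1.32), Col2a1 (1.01) and Pparg (0.87), of which Acta1, Col2a1 and Pparg are markers of other cell types.

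The other 28 were lower in KO. Il33 (-2.10), Dcn (-1.91), Ccl9 (-1.79), Sprr1a (-1.67), Neurl1b (-1.22), Mgp (-1.18), Cp (-1.13), Cebpd (-1.11) and Itga8 (-0.95) were the lowest outside the cholesterol list. That list gave Idi1 (-0.86), Insig1 (-0.74), Nsdhl (-0.73) and Fdps (-0.59). Signalling and immediate early genes were Nr4a1 (-0.63), Socs3 (-0.63), Dusp4 (-0.62), Ctgf (-0.61), Id1 (-0.53), Stat3 (-0.44), Id2 (-0.43), Dusp6 (-0.37) and Id3 (-0.27). Cell cycle genes were E2f2 (-0.75), Mybl2 (-0.39), Cenpa (-0.34) and Lig1 (-0.32), and the remaining pair were Cd14 (-0.67), a macrophage marker, and Tkt (-0.34).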

How the results depend on the processing

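Of the 69 named genes called in the genotype difference at 0 h, 40 kept the call in every alternative run and 0 changed sign. The call was kept by 69 with RLE size factors, with no filter and with the replicate block, by 68 without Rn45s and Lars2, by 65 in the compared groups alone, by 60 with DESeq2 and by 45 without the 3 libraries low in Rn45s and Lars2. Leaving out those 3 libraries gave 219 calls for the genotype difference at 0 h (125 higher, 94 lower), 2172 for WT (1002 lower), 928 lower for KO, 361 lower at 2 h and 6 contractile genes higher. DESeq2 gave 869 lower for KO and 351 lower at 2 h. With no filter, 14 matrix genes were higher.

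The deviations of same-numbered libraries had correlations of -0.0185 to 0.0298 over 6 pairs of groups at 0 h. Correlations over all genes tested are open to sampling noise, so they cannot exclude that the numbers pair the samples. The replicate block gave 650 calls at 0 h, 316 of them lower, against 445 and 209 in the main fit. It gave 14 matrix genes higher.

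Leaving out 1 library gave 262 to 423 calls at 0 h (128 to 223 higher, 128 to 200 lower), 2076 to 2531 in WT (1097 to 1326 higher, 979 to 1205 lower), 1897 to 2167 in KO (962 to 1171 higher, 916 to 996 lower) and 778 to 1197 at 2 h (427 to 665 higher, 343 to 532 lower). At 0 h it gave 7 to 12 antiviral effectors, 4 to 7 GTPases, 6 to 9 matrix and 6 to 11 contractile genes higher and 22 to 25 cholesterol genes lower. The lowest totals came without WT naive 0 h replicate 1 in WT, KO naive 0 h replicate 2 in KO and for the difference at 0 h, and WT naive 2 h replicate 1 at 2 h. By direction, the fewest lower calls in KO and in the difference at 0 h came without KO pretreated 0 h replicate 2, and the fewest higher calls at 2 h without KO pretreated 2 h replicate 1. The single KO naive 2 h library could not be left out. The cause of these shifts was not tested. With 2 libraries a group, a difference of differences is measured less sharply than either after-effect, and genes near 1 CPM, such as Iigp1 and Gbp9 in WT, have wide errors.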
